A study of Rattus norvegicus with 30 samples.

Results

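Wide H3K27me3 peaks that reach well beyond the H3K4me3 they touch were examined in the cortex of the rat embryo. They were chosen by measured values of the control peak lists. A control H3K27me3 peak was taken if it was 1500 bp or wider, touched a control H3K4me3 peak by at least 1 bp and had less than 50% of its bases inside H3K4me3 peaks. This gave 2389 domains out of 57604 control H3K27me3 peaks (4.15%), or 37.5% of the 6368 control peaks of that width. The domains cover 4.93 Mb, which is 10.1% of all bases in control H3K27me3 peaks.

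The tissue was the frontal lobe cortex of Wistar rat embryos at E14.5 (E for embryonic day), and the cortices of an entire litter were pooled for each biological replicate. Control dams ate normal chow, and HFD dams ate a diet with 60% of its calories from fat and were obese when they were mated with healthy males. Libraries were made by ChIP-seq with antibodies to H3K27me3, H4K16Ac and H3K4me3, and to total H3 and pan H4, with 3 libraries per antibody in either diet and 30 in all. The labels of 1 of them, replicate 3 of control total H3, name both diets. It was counted with the control by its title, and its part in the control total H3 list cannot be separated. Such a set of 3 libraries has 1 deposited peak list, so that the spread between replicates is unknown and no test of a difference was run. The 95% Wilson intervals beside the shares account for counting error alone, since regions of a genome are not independent replicates. In a tissue of mixed cells, a mark lost from some cells and a mark lowered in every cell cannot be told apart.

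H3K27me3 is the repressive mark written by the Polycomb complex PRC2, whose catalytic subunit is EZH2, and it keeps developmental regulators silent in cells that do not need them. H3K4me3 marks the promoters of active and poised genes, and promoters that carry both marks, often called bivalent, are typical of genes that await a decision on cell fate. H4K16Ac loosens the packing of nucleosomes and belongs to open chromatin, while total H3 and pan H4 follow the nucleosome itself.

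Most domains were only moderately wide. Their width had a median of 1895 bp (quartiles 1660 to 2295 bp) and a maximum of 8332 bp, with 163 of 3000 bp or wider and 19 of 4000 bp or wider. H3K4me3 covered a median of 30.1% of a domain (quartiles 20.9% to 40.04%), and 99 domains had less than 10% of their bases in H3K4me3. At the width limit, the peak nearest outside (chr12:48119755-48121253, rn6) measured 1499 bp and the nearest inside (chr13:35542056-35543555) 1500 bp. At the limit on H3K4me3, the nearest inside (chr1:104971934-104973720) had 49.97% of its bases in H3K4me3, and the nearest outside (chr13:48978770-48980425) had 50%. The smallest contact with H3K4me3 was 2 bp, in a domain at chr8:9840658-9842445. All coordinates are those of rn6.

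The control H3K27me3 peaks at the domains were weak. Their fold enrichment over the local background, as the peak caller MACS2 gave it, had a median of 2.90 (quartiles 2.66 to 3.30). It was 4.42 in the 3445 wide peaks with 50% or more of their bases in control H3K4me3 and 2.67 in the 534 wide peaks that touched no control H3K4me3. The latter are called wide peaks without H3K4me3 below, although 312 of them (58.4%) touched HFD H3K4me3. The −log10 q of the domains, where q is the p adjusted for the number of places tested, had a median of 1.29, so that 1173 of them (49.1%, background 60.8% over all control H3K27me3 peaks) reached a q of 0.05 and 196 (8.20%, background 28.8%) a −log10 q of 5 or more. In the wide peaks covered by H3K4me3 the latter share was 71.8%. These values come from the list that chose the domains and are a description.

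In most domains the H3K4me3 lay at an end. A single H3K4me3 peak was found in 1833 domains (76.7%), 2 in 504 and 3 or more in 52, after overlapping peaks were merged. The summit of the strongest H3K4me3 peak was in the outer 20% at either end of the domain, or outside it, in 1559 domains (65.3%), and in the middle 20% in 226 (9.46%). H3K27me3 went beyond H3K4me3 on a single side in 1385 domains (58.0%), on both sides in 867 (36.3%), and lay only between H3K4me3 peaks in 137 (5.73%). The longer stretch beyond H3K4me3 at an end of the domain had a median length of 1125 bp (quartiles 863 to 1410 bp), with a maximum of 3340 bp. The typical domain was thus a stretch of H3K27me3 leading away to a single side from an H3K4me3 peak of moderate strength, whose median fold enrichment was 3.98 against 6.98 in the wide peaks covered by H3K4me3.

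HFD H3K27me3 peaks touched some of the domains and covered a small share of their bases. In HFD, 1231 domains (51.5%, 95% Wilson interval 49.5% to 53.5%) were touched by an H3K27me3 peak, against a background of 43.8% over all control H3K27me3 peaks, and HFD peaks covered 18.4% of the domain bases, against 32.0% of the bases of all control peaks. Of the domains, 10.8% had 50% or more of their bases in HFD peaks, against 29.8% of all control peaks. Among the wide peaks covered by H3K4me3, 88.2% (87.1% to 89.2%) were touched and 52.5% of the bases were covered. Among the wide peaks without H3K4me3 the values were 27.9% (24.3% to 31.9%) and 8.34%. The domains were thus above all peaks by a touch of 1 bp, which a wide peak gets more easily, and below them by covered bases, and by both they lay between the other classes of wide peak. The share of domains touched depended on the threshold. It was 24.9% with a q of at most 0.05 in all lists and 9.89% with a −log10 q of 5 or more there. Both settings chose the domains anew and also shortened the HFD list. With the latter limit on the choosing H3K4me3 list alone the share was 70.2%. In the domains with a control H3K27me3 −log10 q of 5 or more it was 76.5%. As a control H3K27me3 peak was required of a domain, the full cover in control is set by the rule, and H3K27me3 cannot be ranked against the other antibodies for its difference between the diets. The background pileup read from the lists of H3K27me3 was 0.880 fragments per base in control and 0.351 in HFD, which is 39.9% of control. The part of this lower depth in the difference was not tested.

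The HFD H3K27me3 peaks at the domains were short, as are most peaks of that list. The HFD peak that shared most bases with a domain had a median width of 647 bp (quartiles 377 to 1124 bp), while the control peaks of these 1231 domains had a median of 1949 bp. The HFD peak was the narrower in 1181 of them (95.9%). Over the whole lists, peaks had a median of 714 bp in control and of 488 bp in HFD. Of all domains, 1072 (44.9%) had an HFD peak below 1500 bp as their largest match, 94 (3.93%) met the same rule again in HFD, 59 (2.47%) had a wide HFD peak with 50% or more of its bases in HFD H3K4me3, 6 had a wide HFD peak without H3K4me3, and 1158 (48.5%) had none. Of these HFD peaks, 355 (28.8%, background 24.1% over all HFD H3K27me3 peaks) reached a q of 0.05 and 26 (2.11%, background 1.21%) a −log10 q of 5 or more, so that few were strong, as in the whole HFD list. Their fold enrichment, taken as the strongest peak on each domain, had a median of 2.99, against 3.14 in the wide peaks covered by H3K4me3. The control widths chose the domains, so that a narrower HFD peak is largely set by the rule, and the plot of peak widths is a description.

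**Figure D1:**
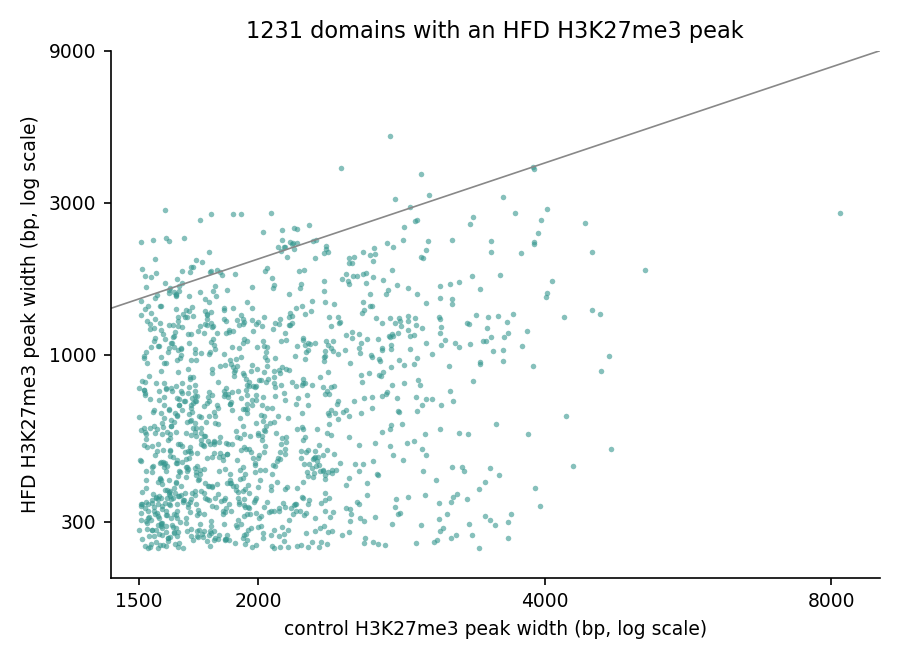
Width in bp of the control H3K27me3 peak (horizontal, log scale) against that of the HFD H3K27me3 peak sharing most bases with it (vertical, log scale), with 1 point for each of the 1231 domains that had such a peak and a grey line at equal width. The HFD peak was narrower in 1181 domains, with a median of 647 bp against 1949 bp in control, but the domains were chosen for a control width of 1500 bp or more, so that points below the line are largely set by the choice.

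Within the domains, HFD H3K27me3 covered a larger share of the bases with control H3K4me3 than of the bases without. The bases with control H3K4me3 add up to 1.48 Mb and those without to 3.45 Mb. HFD H3K27me3 peaks covered 33.1% of the former and 12.1% of the latter, a ratio of 2.73. In the wide peaks covered by H3K4me3 the same shares were 58.3% and 26.1%, a ratio of 2.23. In the domains the ratio was 3.20 for HFD total H3, 2.68 for HFD pan H4 and 1.27 for HFD H4K16Ac. A larger share on bases with H3K4me3 was thus not particular to H3K27me3. Seen from the strongest control H3K4me3 summit, with each domain turned so that the end farther from the summit lies to the right (the longer side), an HFD H3K27me3 peak was present at 35.0% of the summits, at 16.5% of the positions 500 bp along the longer side, and at 10.8% of those at 1000 bp. At 1000 bp the control peak was still present in 97.8% of domains. Outside the domains, 5000 bp away on the shorter side, the values were 2.05% in HFD and 3.47% in control.

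**Figure D2:**
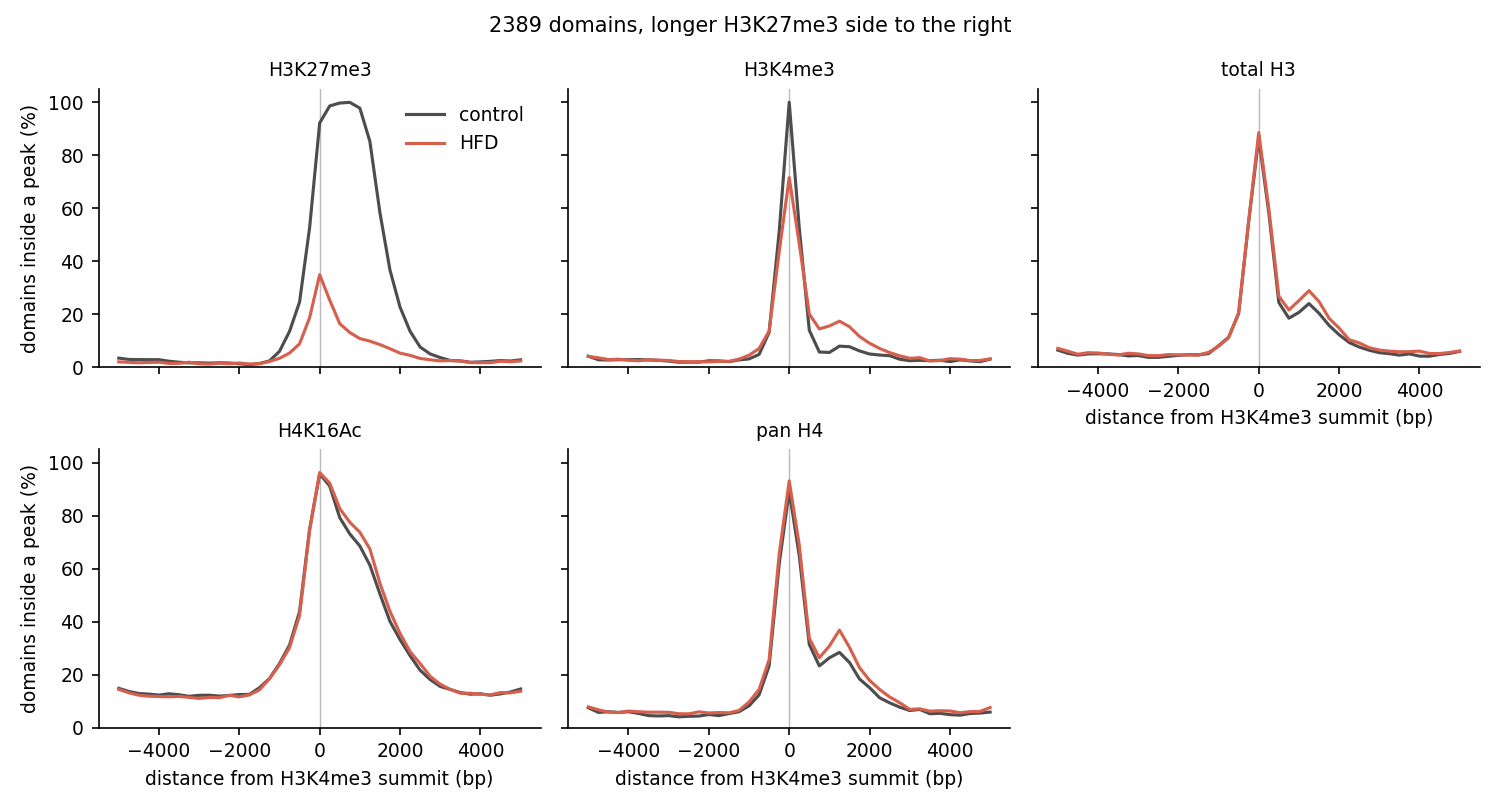
Share of the 2389 domains (vertical, %) inside a peak of the control (grey) or HFD (red) list of each antibody, by distance in bp from the strongest control H3K4me3 summit (horizontal), with the domain end farther from the summit to the right. At 1000 bp on that side 97.8% of domains were inside control H3K27me3 and 10.8% inside HFD H3K27me3, while H4K16Ac stood at 68.6% and 73.8%.

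H3K4me3 was found at most domains in HFD too. All of them touch a control H3K4me3 peak by the rule (background 75.2%). In HFD, 2108 were touched (88.2%, 86.9% to 89.5%, background 74.3%) and 281 were not. The domains are wide and touch control H3K4me3 by the rule, so that the 88.2% cannot be read as an excess over the 74.3%. HFD H3K4me3 touched 91.6% of all 6368 wide control H3K27me3 peaks, 99.1% of those covered by H3K4me3 and 58.4% of those without it. Of the domain bases, 31.6% lay in HFD H3K4me3 peaks, against 30.1% in control, an HFD over control ratio of 1.05. This direction turned with the choice of domains, as the ratio was 0.944 when HFD H3K4me3 chose them and 0.976 when up to 75% of their bases could lie in H3K4me3. It was 0.933 in the wide peaks covered by H3K4me3 and 0.966 over all control H3K27me3 peaks. The number of domains with more H3K4me3 bases in HFD was 1251 and the number with fewer was 1129, and in 417 (17.5%, background 60.8%) HFD H3K4me3 covered 50% or more. The rule left out peaks with 50% or more of their bases in control H3K4me3. The distance of the 17.5% from its background is therefore largely set by the choice. The H3K4me3 peaks did not sit on the same bases throughout, as HFD peaks covered 68.0% of the bases with control H3K4me3 and 15.9% of those without. At the summit position itself, 71.6% of domains were inside an HFD H3K4me3 peak, where control is at 100% by construction. Farther out the order turned, and at 1000 bp along the longer side 15.6% were inside H3K4me3 in HFD and 5.61% in control. Control values of both marks chose the domains, so that a control value high in H3K27me3 or low in H3K4me3 is built into the comparison.

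The same rule applied to the HFD lists gives the comparison from the other side. It picked 728 domains out of 49072 HFD H3K27me3 peaks, 31.7% of the 2293 that were wide. Of these HFD domains, 564 (77.5%, 74.3% to 80.4%) were touched by a control H3K27me3 peak, against a background of 51.8% over all HFD peaks. Control peaks covered 38.9% of the HFD domain bases, below the 47.2% in HFD peaks under 1500 bp. In wide HFD peaks the covered share was 84.1% with 50% or more of the bases in HFD H3K4me3, and 8.98% without HFD H3K4me3. From the HFD side the covered share of the domains was thus higher than the 18.4% seen from the control side, but it too was far from complete. This order was not particular to the domains, as peaks under 1500 bp stood at 47.2% from the HFD side and 30.5% from the control side. The control list covers 48.9 Mb and the HFD list 31.8 Mb, and the part of this in the order was not tested. H3K4me3 covered 31.0% of the HFD domains in HFD and 30.9% in control, which is nearly the same. Of the HFD domains 96 (13.2%) touched a control domain, and of the control domains 96 (4.02%) touched an HFD domain, with the lists of 728 and 2389 domains being unequal in size.

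H4K16Ac, an activating mark, covered most of the domain bases, both with and without H3K4me3. A control H4K16Ac peak touched 2354 domains (98.5%, 98.0% to 98.9%, background 90.6%) and an HFD peak 2367 (99.1%, 98.6% to 99.4%, background 91.7%). Being touched more often than all peaks was not particular to the domains. Of all 6368 wide control H3K27me3 peaks, H4K16Ac touched 98.0% in control and 98.9% in HFD. H4K16Ac peaks covered 77.2% of the domain bases in control and 80.9% in HFD, a ratio of 1.05, against 83.7% and 84.5% over all control H3K27me3 peaks. H4K16Ac extended over the whole domain in 916 cases in control (38.3%, background 49.1%) and 1028 in HFD (43.0%, background 48.8%). By covered bases the domains were thus below all peaks, and 5 domains had none in either diet. Of the bases without control H3K4me3, 69.8% were inside H4K16Ac in control and 74.9% in HFD. In the wide peaks without control H3K4me3, 83.9% were touched by control H4K16Ac and 91.8% by HFD H4K16Ac. The strongest H4K16Ac peak at a domain had a median fold enrichment of 3.02 in control and 3.11 in HFD, against 3.36 and 3.49 in the wide peaks covered by H3K4me3. The share touched by control H4K16Ac depended on the threshold. It was 97.5% with a q of at most 0.05 in all lists and 61.1% with a −log10 q of 5 or more there. Both settings chose the domains anew. The H3K27me3 and H4K16Ac lists hold broad peaks and the other lists narrow ones, so that the reach of a mark and the way its peaks were called cannot be told apart.

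Total H3 and pan H4, the measures of the nucleosome, covered a larger share of the domain bases with control H3K4me3 than of those without. Total H3 peaks touched 2270 domains in control (95.02%, 94.1% to 95.8%, background 84%) and 2332 in HFD (97.6%, 96.9% to 98.2%, background 86.7%). They covered 39.5% of the bases in control and 42.5% in HFD, a ratio of 1.07, against 66.4% and 67.5% over all control H3K27me3 peaks. Pan H4 peaks touched 2327 in control (97.4%, 96.7% to 98.0%, background 87%) and 2359 in HFD (98.7%, 98.2% to 99.1%, background 90.1%). They covered 44.5% and 49.4% of the bases, a ratio of 1.11, against 70.7% and 73.5% over all peaks. In the wide peaks covered by H3K4me3 the pan H4 ratio was 1.00 and the total H3 ratio 0.995. In the wide peaks without H3K4me3 they were 1.37 and 1.19, above those of the domains. For both antibodies the domains were thus touched more often than all peaks and covered less. Being touched more often was not particular to them. Of all 6368 wide control H3K27me3 peaks, total H3 touched 95.4% in control and 97.2% in HFD, and pan H4 96.9% and 98.2%. Control total H3 covered 80.4% of the bases with control H3K4me3 and 22.0% of those without, and control pan H4 85.2% and 26.9%. The HFD background pileup was 111.2% of control in total H3, and 109.6% in pan H4, 108.6% in H4K16Ac and 87.7% in H3K4me3. The part of depth in these ratios was not tested.

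**Figure D3:**
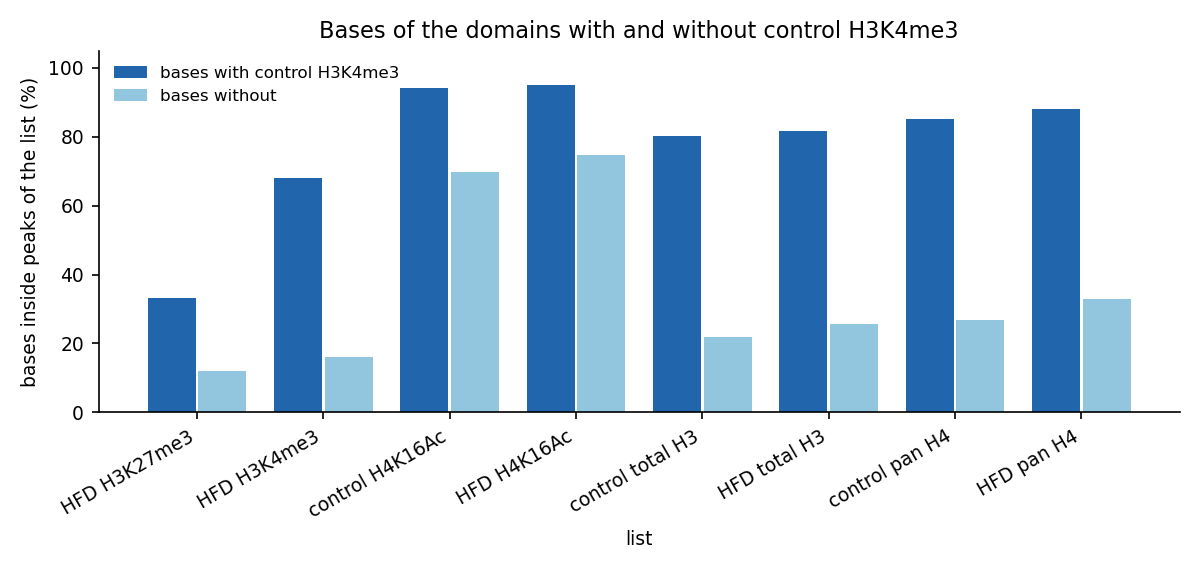
Share of the domain bases (vertical, %) inside the peaks of 8 lists (horizontal), for the 1.48 Mb with control H3K4me3 (dark) and the 3.45 Mb without (light). HFD H3K27me3 covered 33.1% and 12.1%, control H4K16Ac 94.2% and 69.8%.

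A second, lower rise was seen in the narrow lists along the longer side. Control total H3 was present in 18.5% of domains at 750 bp and in 24.1% at 1250 bp, and control pan H4 in 23.4% and 28.5%. HFD total H3 went from 21.6% to 28.9% and HFD pan H4 from 26.5% to 36.9% over the same positions. H3K4me3 went from 5.78% to 7.99% in control and from 14.48% to 17.4% in HFD. HFD H3K27me3 showed no such rise and fell from 13.1% to 9.88%. The domains were chosen for little control H3K4me3 and centred on its strongest summit, so that low control H3K4me3 away from the summit is largely set by the choice. The position lies near the far end of many domains, where control H3K27me3 was down to 85.2%.

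**Figure D4:**
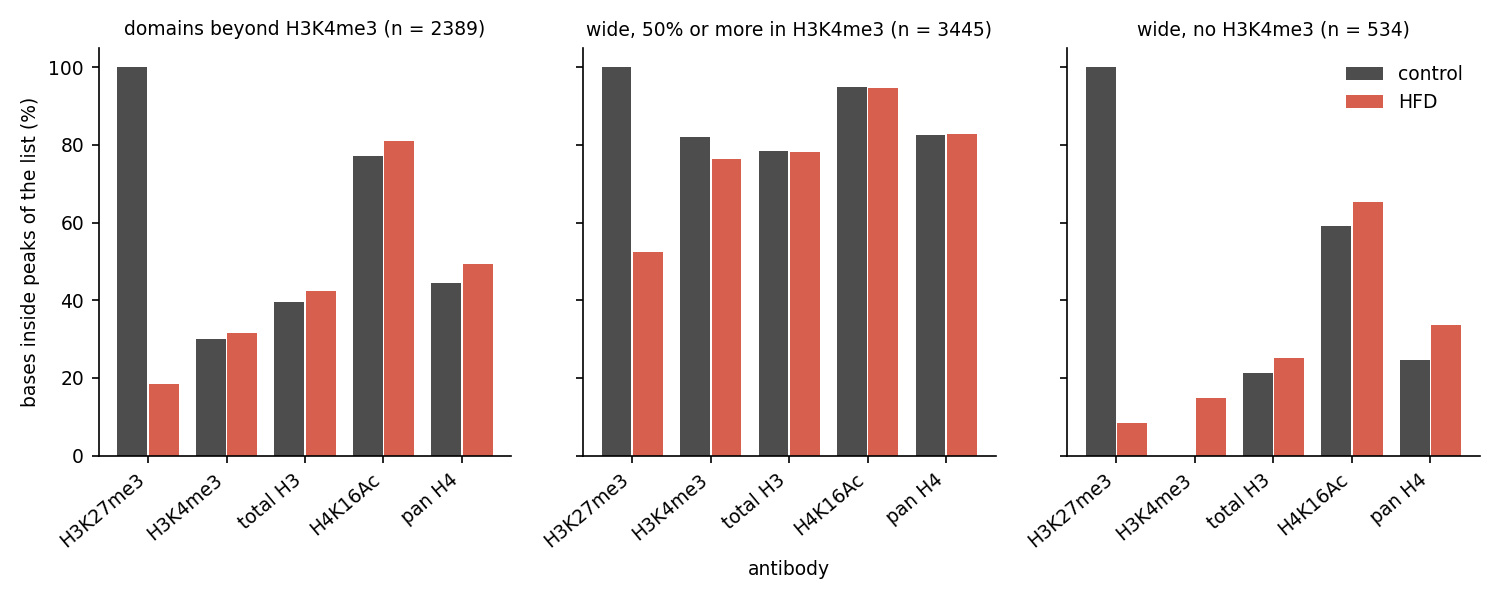
Share of bases (vertical, %) inside the control (grey) and HFD (red) peaks of each antibody (horizontal) for the domains and for the other wide control H3K27me3 peaks, with the number of peaks in each panel. Over the domains HFD H3K27me3 covered 18.4% and HFD H4K16Ac 80.9%, while control H3K27me3 is at 100% in every panel by the choice of peaks.

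Several marks met at most domains. All 10 lists touched 1124 of them (47.0%, background 38.7%), against 87.6% of the wide peaks covered by H3K4me3. Control H3K4me3, 1 of these lists, touches every domain by the rule but only 75.2% of all control H3K27me3 peaks. The 47.0% can therefore not be read as an excess over the 38.7%. Total H3, H4K16Ac and pan H4 were present in both diets in 2190 (91.7%, background 75.8%), against 99.2% of the wide peaks covered by H3K4me3 and 52.4% of those without it. In HFD both H3K27me3 and H3K4me3 were found at 1167 domains (48.8%, background 40.9%), and H3K4me3 without H3K27me3 at 941 (39.4%, background 33.4%). H3K27me3 without H3K4me3 was found at 64 (2.68%, background 2.87%) and neither at 217 (9.08%, background 22.8%). As control H3K4me3 was required of the domains and not of all peaks, the distance of these 4 shares from their backgrounds is largely set by the choice. The 217 with neither had a weaker control H3K27me3 peak, with a median −log10 q of 0.856 against 1.62 where both were kept. They also had less control H3K4me3, with a median of 20.3% of their bases against 33.4%. Even there H4K16Ac was present in 97.2% in control and 96.3% in HFD.

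Domains with stronger control peaks kept H3K27me3 in HFD more often. With the domains ordered by their control H3K27me3 −log10 q and split into 4 groups of equal size, 35.3%, 45.6%, 51.9% and 73.4% had an HFD H3K27me3 peak. Ordered by control H3K27me3 fold enrichment, the groups stood at 44.1%, 44.9%, 48.1% and 69.0%, so that the rise lay mostly in the highest group. By the strength of the control H3K4me3 peak the groups stood at 37.0%, 39.9%, 53.1% and 76.2%. By the share covered by H3K4me3, one of the values that chose the domains, they went from 38.5% to 61.6%. By width, the other such value, they went from 45.2% to 60.8%, but the bases covered by HFD H3K27me3 went only from 15.9% to 21.7%, as a wider domain is more easily touched. The separate parts of these measures were not tested.

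Set against wide peaks covered by H3K4me3, the domains kept H3K27me3 less often in each range of control −log10 q. Strength was not matched within a range, and the last range has no upper limit. Below 1 the shares were 38.4% (35.0% to 41.8%, n = 795) in domains and 60.3% (52.3% to 67.7%, n = 151) in covered peaks. From 1 to 2 they were 47.2% (44.0% to 50.5%, n = 917) and 68.1% (63.0% to 72.9%, n = 339), and from 2 to 5 they were 71.3% (67.1% to 75.2%, n = 481) and 82.2% (78.5% to 85.3%, n = 483). From 5 to 20 they were 75.3% (68.2% to 81.2%, n = 166) and 90.2% (88.3% to 91.8%, n = 1089), and from 20 upward 83.3% (66.4% to 92.7%, n = 30) and 96.7% (95.7% to 97.6%, n = 1383). Against the wide peaks without H3K4me3 the order was the opposite, as these kept H3K27me3 in 28.1% (23.7% to 33.0%, n = 359) below 1 and in 27.1% (20.9% to 34.3%, n = 166) from 1 to 2. The domains were thus between the other classes in these ranges. No test over replicates could be made of these differences.

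**Figure D5:**
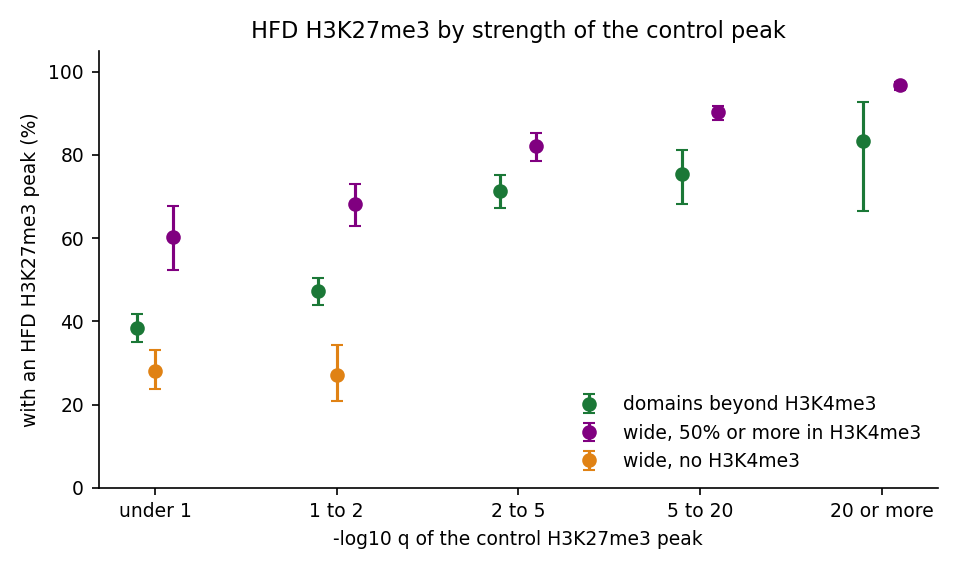
Share of peaks with an HFD H3K27me3 peak (vertical, %) by −log10 q of the control H3K27me3 peak (horizontal), for the domains (green), wide peaks with 50% or more of their bases in H3K4me3 (purple) and wide peaks without H3K4me3 (orange, ranges with at least 30 peaks), with 95% Wilson intervals as bars for counting error. The domains lie below the purple points, at 38.4% against 60.3% in the weakest range and 83.3% against 96.7% in the strongest, and above the orange ones, which stand at 28.1% and 27.1%.

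The 5 widest domains differed in what HFD left of them. The widest, of 8332 bp at chr12:13803699-13812030, held 7 separate H3K4me3 stretches and had no HFD H3K27me3 at all. H3K4me3 covered 47.8% of it in control and 52.9% in HFD, total H3 31.9% and 37.0%, H4K16Ac 65.8% and 81.8%, and pan H4 43.1% and 43.7%. The next, of 8184 bp at chr3:107755828-107764011, had 34.1% of its bases in HFD H3K27me3, from a peak of 2791 bp that met the rule again in HFD. Its H3K4me3 hardly moved, at 42.3% in control and 42.1% in HFD, while H4K16Ac covered 74.3% and 99.8%. At chr1:181166804-181171901, 5098 bp wide, HFD H3K27me3 covered 47.2%, H3K4me3 33.2% in control and 51.7% in HFD, and H4K16Ac the whole domain in both diets. At chr20:5016562-5021256, 4695 bp wide, HFD H3K27me3 covered 10.8%, H3K4me3 31.4% in control and 26.5% in HFD, and H4K16Ac 68.4% and 100%. At chr1:182008441-182013114, 4674 bp wide, HFD H3K27me3 covered 36.6%, H3K4me3 42.1% in control and 59.9% in HFD, and H4K16Ac 100% and 97.0%. All 5 were thus marked by H4K16Ac over most of their length in both diets, and 4 of the 5 kept some H3K27me3.

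The 5 domains with the highest control −log10 q were strong by p and of modest to high fold enrichment. At chr1:180702359-180706247 the −log10 q was 141 and the fold enrichment 4.34, and HFD H3K27me3 covered 99.97% of the 3889 bp. H3K4me3 covered 44.7% of it in control and 67.3% in HFD, total H3 49.6% and 70.1%, H4K16Ac 100% and 99.97%, and pan H4 67.2% and 74.2%. At chr7:12672835-12674910 the −log10 q was 64.3 and the fold enrichment 6.60, and HFD H3K27me3 covered 29.7%. The other three lay at chr14:46647072-46650326, chr1:180896759-180898456 and chr14:46652214-46655939, with −log10 q of 51.8, 51.7 and 50.2, fold enrichments of 2.27, 3.60 and 2.67, and 33.1%, 35.7% and 73.6% of their bases in HFD H3K27me3. The background pileup that fits both the fold and the p was about 106, 20.3, 205, 58.7 and 122 fragments per base in these 5, against 0.880 for the list, and it is approximate because values of broad peaks are averages. As it is computed from the p that picked these 5, a high value is largely set by the choice.

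High background was found at the domains where HFD kept most H3K27me3, and also at the widest domain, where it kept none. After the domain at chr1:180702359-180706247, with 3888 bp in HFD peaks, the most HFD H3K27me3 was found at chr12:3353472-3357371 (3836 bp), chr1:55638248-55641274 (3027 bp), a domain on an unplaced scaffold (2882 bp) and chr19:28127281-28130248 (2872 bp). Their background pileups were about 50.6, 5.63, 10.5 and 8.71 fragments per base. Among the 5 widest domains it was about 50.4 at chr12:13803699-13812030, which had no HFD H3K27me3, and 18.7, 14.2 and 10.3 at chr3:107755828-107764011, chr1:181166804-181171901 and chr1:182008441-182013114, which kept some. Of all domains, 198 (8.29%) had a background at least 5 times that of the list, against 18.5% of all control H3K27me3 peaks. Of these 198, 162 (81.8%) had an HFD H3K27me3 peak, against 86.7% of all control peaks with such a background. Without regard to background the shares were lower, at 51.5% of all domains and 43.8% of all control H3K27me3 peaks. The part of the background in the kept share was not tested.

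Domains were spread over the genome and fell on every chromosome but Y. Chromosome 1 held the most, with 284, and 23 lay on 18 unplaced scaffolds. As a share of the wide control H3K27me3 peaks they ranged from 29.5% (22.8% to 37.3%) on chromosome 18 to 41.2% (35.3% to 47.2%) on chromosome 19 among placed chromosomes that held any, intervals that overlap. The share with an HFD H3K27me3 peak was lowest on chromosome 18, at 38.6% of 44 domains (25.7% to 53.4%), where it was 40.8% of all control H3K27me3 peaks, and nearly as low on chromosome 5, at 39.5% of 167 (32.4% to 47.1%), against 41.6% of all. It was highest on chromosome X, at 66.7% of 66 (54.7% to 76.8%), against 48.6% of all. The distance to the nearest other domain had a median of 191099 bp, and 600 domains (25.1%) had another within 50000 bp.

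Some windows of 1 Mb held many domains. The most, 15, lay between chr7:12158499 and chr7:12853348, where 8 had HFD H3K27me3 and 13 HFD H3K4me3. The next held 12 domains on chromosome 19, from 26052017 to 26990133, of which 11 had HFD H3K27me3 and all 12 HFD H3K4me3. The third held 10 on chromosome 16, from 21083764 to 21948821, with 7 and 9. These windows were also rich in H3K27me3 peaks of other kinds, with 112, 84 and 74 control peaks in all, of which 36, 23 and 17 were wide. Of the 1277 windows with a domain, 762 held a single one and 90 held 5 or more, which together contain 554 domains.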

How the data were processed

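Per the study's methods, the authors used Bowtie2 for alignment to rn6 and MACS2 for peaks. The options are described only as the recommended ones, and versions are not given in the sources used here. Of the 10 deposited lists, 4 hold broad peaks and 6 narrow ones. The authors' values for each peak are the −log10 p-value and q-value and the fold enrichment (a ratio, pileup over local background). The least strict q in the lists was 0.50. Columns of other samples numbered 0.

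The domains, the other classes and the named regions (5 widest, 5 highest −log10 q, 5 with most bases in HFD H3K27me3, 3 windows with most domains, those nearest each limit) were chosen with earlier results of these data known. Overlaps and covered bases were computed with pandas 2.3.3, numpy 2.4.6 and scipy 1.17.1 in Python 3.11.15 and drawn with matplotlib 3.10.9. Intervals listed several times for several summits were counted once. On simulated intervals, 320 of 320 got the same class as by a base-by-base count. Background pileups came from each list's commonest fold enrichment with its p, with fold enrichment taken as (k + 1) / (b + 1) for a pileup k over a background b. Alternatives were other width and H3K4me3 limits, stricter peaks, joined peaks, HFD H3K4me3 as the choosing list, placed chromosomes, a larger overlap, lists of equal length and, chosen after seeing the data, a q of at most 0.05. Gene names, gene lists, base composition and sequences were not analysed here, as no rn6 annotation or genome was used.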

Additional observations from a re-analysis of the deposited data

How the results depend on the processing

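The ratios of covered bases between the diets, other than that of H3K27me3, stayed within 1.5 times of their values under the alternatives, with ranges of 0.944 to 1.29 for H3K4me3, 1.03 to 1.11 for total H3, 1.03 to 1.19 for H4K16Ac and 1.04 to 1.20 for pan H4, as did HFD H3K27me3 over bases with against without H3K4me3 (2.15 to 3.17). The H3K4me3 ratio was 0.944 with HFD H3K4me3 as the choosing list and 0.976 with less than 75% in H3K4me3, and above 1 in the other settings. The number of domains and the shares touched depended on the limits.
With widths of 1000 bp or more there were 4987 domains, of which 41.7% had HFD H3K27me3, 81.4% HFD H3K4me3 and 97.6% control H4K16Ac. With 3000 bp or more there were 163, with 73.0%, 97.5% and 99.4%. With less than 25% in H3K4me3 there were 855, with 40.9%, 78.9% and 97.1%. With less than 75% there were 3603, with 60.2% and 91.4% for the first and second mark. With a −log10 q of 5 or more in all lists there were 283, with 9.89%, 97.5% and 61.1%, and 6.15% of their bases in HFD H3K27me3. With that limit only on the H3K4me3 peaks that choose the domains there were 1261, with 70.2%, 97.1% and 99.9%, and 28.2% of the bases. With a q of at most 0.05 in all lists, added after seeing the data, there were 1197, with 24.9%, 92.6% and 97.5%, and 10.2% of the bases. When 50% of a domain had to be covered, the shares were 10.8%, 17.5% and 75.7%. With HFD H3K4me3 as the choosing list, HFD H3K4me3 was 100% by construction and control H4K16Ac 97.5%. Joining peaks under 1000 bp apart could change nothing, since the smallest gap in the control H3K27me3 list was 1111 bp, and with lists of equal length the shares touched by HFD H3K27me3, HFD H3K4me3 and control H4K16Ac could not change, as these are the shorter lists. The setting that moved the H3K27me3 shares most was a −log10 q of 5 or more in all lists. It chose the domains anew and shortened the HFD list at once, and these 2 changes cannot be separated. With that limit only on the choosing H3K4me3 list the shares went the other way, to 70.2% of domains and 28.2% of bases. The HFD H3K27me3 list, with 594 peaks at a −log10 q of 5 or more against 16607 in control, was the shallowest. No paired analysis was possible because the 3 libraries of a group share 1 list, and for the same reason no replicate could be left out.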

Other observations

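The 23 domains on unplaced scaffolds had an HFD H3K27me3 peak in 14 cases (60.9%, 95% Wilson interval 40.8% to 77.8%), against 50.4% of the 550 control H3K27me3 peaks there. Among domains with a control −log10 q of 5 or more, 150 of 196 (76.5%, 70.1% to 81.9%) had an HFD H3K27me3 peak, against 93.9% (92.8% to 94.7%) of the 2472 wide peaks covered by H3K4me3 at the same limit. H4K16Ac was present in both diets at all 196, and at 100% and 99.96% of those 2472 in control and HFD. The strongest pan H4 peak at a domain had a median fold enrichment of 4.48 in control and 5.70 in HFD, below the 5.59 and 6.37 of the wide peaks covered by H3K4me3 and the 5.56 and 6.998 of peaks under 1500 bp. For total H3 the medians were 5.02 and 5.18 at the domains, 5.77 and 5.75 in the wide covered peaks, and 6.32 and 6.15 in peaks under 1500 bp. The wide peaks without H3K4me3 lay below the domains, at 3.22 and 3.86 for pan H4 and 3.73 and 3.81 for total H3.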
